A study of Mus musculus with 7 samples.

Results

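The 10 genes described here belong to the Notch pathway and the segmentation clock: the ligand genes Dll1, Dll3 and Jag1, the receptor genes Notch1 and Notch2, the glycosyltransferase gene Lfng, the nuclear effector gene Rbpj, and the repressor genes Hes1, Hes7 and Hey1. They were taken from a list of names, and all 10 were found among the 21887 protein-coding genes of the RefSeq gene table (assembly GRCm38.p6). For each gene, peaks were read from 4 peak lists in a near window, which spans the gene and 10 kb to either side, and in a wide window that reaches 50 kb from it.

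The lists come from chromatin immunoprecipitation with sequencing (ChIP-seq) of parental mouse embryonic stem cells (ESCs), the genotype shared by all groups used. Oct1 (Pou2f1) was precipitated from undifferentiated ESCs and from the same cells at day 3 and day 6 of differentiation towards mesoderm, and Oct4 (Pou5f1) from undifferentiated ESCs. Both are POU-domain factors that bind octamer sequences. Mesodermal cultures were kept with Bmp4 over the first 2 days. They were then moved to medium with Rspo3 and the BMP receptor inhibitor LDN-193189 for another 4 days, so day 3 falls after the change of medium. Each group was 1 library, the name of the ESC line was not given in the sources used here, and binding lists hold no expression values with which to check the cell type. There is therefore no replicate error, and no test between groups was made. The lists held 17709 (Oct1 in ESCs), 22817 (Oct4 in ESCs), 4867 (Oct1 at day 3) and 7758 (Oct1 at day 6) peaks, and the depth in reads that each library reached is unknown. The whole-number score that the authors gave each peak has no stated unit. It is used as a rank and as a percentile within its own list, where 100 is the strongest. Ranks in lists of different length cannot show whether binding changed.

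In Notch signalling, a ligand on one cell binds a receptor on its neighbour, the receptor is cleaved, and its intracellular part enters the nucleus and joins the DNA-binding protein Rbpj to switch on targets such as the Hes and Hey repressor genes. In presomitic mesoderm, the tissue that forms the somites, Hes7 and Lfng are transcribed in waves. Hes7 represses its own gene, and Lfng modifies Notch receptors, so that both act as negative feedback in the segmentation clock.

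Promoter windows of 3 of the genes, and of 1 other, are shown first. RefSeq promoter windows (GRCm38.p6, 250 bases before to 50 after a start) were found for 8 of the 10 genes, with 2 starts each for Dll1 and Rbpj. The 250 bases before the start are printed 5′ to 3′ on the gene's strand. Capitals mark a match to the octamer ATGCAAAT or to its looser form ATGCNAAT, which includes the octamer, on either strand. Dll1 is shown because its window held an octamer under Oct1 peaks of day 3 and day 6, Rbpj because it held the looser form under such peaks, and Notch1 because it was the 1 gene of the 8 whose window also had an Oct1 peak in ESCs. Nrarp, whose product is a Notch target that lowers Notch signalling, is not among the 10 genes and was added after its octamer was seen.
Dll1, chr17:15375824-15376073, minus strand: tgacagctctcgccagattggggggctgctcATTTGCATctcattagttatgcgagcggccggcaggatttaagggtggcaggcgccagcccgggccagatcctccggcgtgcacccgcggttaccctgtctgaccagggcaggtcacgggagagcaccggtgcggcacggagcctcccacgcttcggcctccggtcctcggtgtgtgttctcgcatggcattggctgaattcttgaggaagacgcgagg
Rbpj, chr5:53590096-53590345, plus strand: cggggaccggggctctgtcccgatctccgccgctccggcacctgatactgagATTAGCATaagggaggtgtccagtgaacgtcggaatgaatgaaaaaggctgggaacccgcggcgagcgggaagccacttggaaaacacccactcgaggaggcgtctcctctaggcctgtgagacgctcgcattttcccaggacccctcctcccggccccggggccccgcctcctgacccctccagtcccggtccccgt
Notch1, chr2:26503823-26504072, minus strand: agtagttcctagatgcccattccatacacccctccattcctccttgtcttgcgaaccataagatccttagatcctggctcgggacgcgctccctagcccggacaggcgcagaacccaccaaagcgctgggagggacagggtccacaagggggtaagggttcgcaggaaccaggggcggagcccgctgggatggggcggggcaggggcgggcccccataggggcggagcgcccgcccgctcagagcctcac
Nrarp, chr2:25180508-25180757, plus strand: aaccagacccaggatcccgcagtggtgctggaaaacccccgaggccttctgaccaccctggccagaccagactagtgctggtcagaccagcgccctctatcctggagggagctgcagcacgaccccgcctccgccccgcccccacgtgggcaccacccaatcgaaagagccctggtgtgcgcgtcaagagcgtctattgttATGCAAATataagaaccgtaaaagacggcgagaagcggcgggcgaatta

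Day 3 and day 6 peaks at these genes often lay over a promoter window, as they did at genes in general. At the 8 genes with a listed window, this held for 1 of the 6 ESC Oct1 peaks within 10 kb and none of the 10 Oct4 peaks, where 8.15% and 4.32% of the pairs of a gene and a peak did so over all protein-coding genes with a window. It held for 4 of the 6 day 3 peaks and 5 of the 7 day 6 peaks, where the shares over all such genes were 47.3% and 57.3%. Within 10 kb, 4 of the 10 genes had an Oct1 peak in ESCs (Dll1, Notch1, Notch2 and Hes7), near the 35.2% of all protein-coding genes. At day 3 the number was 6 (Dll1, Jag1, Notch1, Notch2, Rbpj and Hey1), where the share of all genes was 24.6%. At day 6 it was 8, all but Lfng and Hes7, against 41.5% of all genes. Oct4 peaks of ESCs were listed within 10 kb of 6 genes (Dll1, Dll3, Notch1, Notch2, Lfng and Hes7), against 40.2% of all genes. With the upper 50% of scores alone, 4 genes had an ESC Oct1 peak (24.2% of all genes), 2 an Oct4 peak (26.7%), and Oct1 peaks were listed at 5 genes for day 3 (15%) and at 5 for day 6 (25%). With all lists shortened to 4867 peaks, 2 had an Oct4 peak (14.7%), and within the gene body alone 2 had an Oct4 peak (28%) and 1 an ESC Oct1 peak (23.9%). Every gene had a peak in at least 1 list, as 63.5% of all genes did, and Dll1, Notch1 and Notch2 had one in all 4, as 9.18% of all genes did. Both a day 3 and a day 6 peak were listed at 6 genes (20.6% of all genes), and a day 6 but no ESC Oct1 peak at 5 (22% of all genes).

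Within 50 kb, an Oct1 peak of ESCs was listed at 7 genes (58.7% of all genes) and an Oct4 peak at 8 (62.5%). For day 3 the number was 8 (41.5%), and for day 6 it was all 10 (57.9%). With all lists shortened to 4867 peaks, the ESC numbers were 4 for Oct1 (33.6% of all genes) and 4 for Oct4 (31.4%). Long genes offer more room for peaks. The 4 genes of 10 kb or longer (Jag1, Notch1, Notch2 and Rbpj) all had Oct1 peaks within 10 kb at day 3 and day 6, where 28.2% and 47.6% of genes of that length did. Of the 6 shorter genes, 2 had a peak at day 3 and 4 at day 6, where 18.4% and 30.8% of genes under 10 kb did. In ESCs, Oct1 peaks were listed at 2 of the 4 longer genes (41.9% of genes of that length) and 2 of the 6 shorter ones (23.5%). Oct4 peaks were at 2 of the 4 (46.8%) and 4 of the 6 (28.6%).

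**Figure D1:**
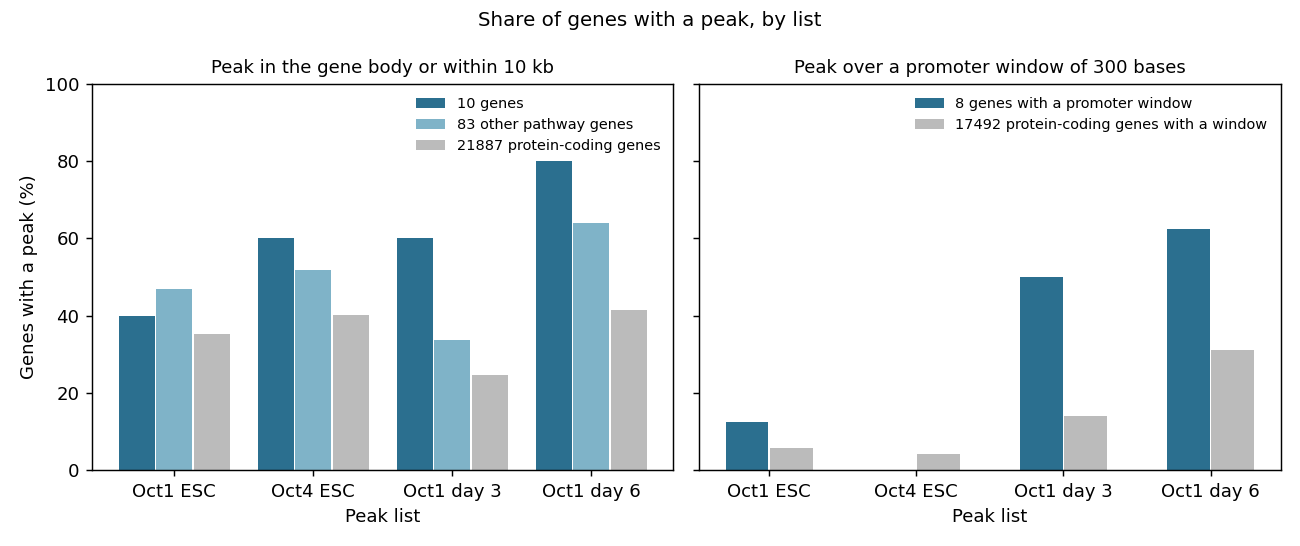
Percent of genes with a peak in each of the 4 lists (vertical axis), with 1 library per list and no error bars. Left, the near window (10 kb) for the 10 genes, 83 other pathway and clock genes and all 21887 protein-coding genes. Right, peaks over a 300-base promoter window for 8 of the 10 genes and for 17492 protein-coding genes, where the day 3 and day 6 bars of the 8 genes stand for 4 and 5 genes.

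The promoter windows were counted separately. None of the 8 genes with a window had an Oct4 peak over it, where 4.18% of 17492 protein-coding genes did, and 1 (Notch1) had an ESC Oct1 peak over it, where 5.81% did. At day 3 the number was 4 (Dll1, Jag1, Notch1 and Rbpj), against 14.1% of all genes, and at day 6 it was 5, the same 4 and Notch2, against 31% of all genes. The windows of Dll3, Lfng and Hes7 were overlapped in no list.

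Within 10 kb of these genes, 1 site was shared between the ESC lists, a count that depends on where the window ends. Of the 6 ESC Oct1 peaks within 10 kb, 1, at Dll1, overlapped an ESC Oct4 peak, where 59.1% of all ESC Oct1 peaks did, and 1 of the 10 Oct4 peaks overlapped an Oct1 peak (46% of all Oct4 peaks). Within 50 kb 12 of 22 Oct1 peaks overlapped an Oct4 peak, near the 59.1% of the whole list, so 11 of the 12 lay more than 10 kb from the genes. Of the 6 ESC Oct1 peaks within 10 kb, 1, at Notch1, overlapped a day 3 and a day 6 peak. Over all ESC Oct1 peaks the shares were 8.88% and 6.66%. Of the 7 day 3 peaks, 5 overlapped a day 6 peak, at Dll1, Jag1, Notch1, Rbpj and Hey1, where 58.5% of all day 3 peaks did. When each peak had to cover 50% of the other, 3 of the 7 did so, against 55.2% of all day 3 peaks. With the upper 50% of scores in both lists it was 3 of 5, against 67.8%. In the other direction 5 of the 10 day 6 peaks overlapped a day 3 peak, where 36.6% of all day 6 peaks did. When the peaks within 10 kb were merged over lists, they formed 25 sites. Of these, 8 held an Oct4 peak alone, 4 an ESC Oct1 peak alone, 5 a day 6 peak alone and 4 peaks of day 3 and day 6 without an ESC peak. Over all pairs of a protein-coding gene and a merged site within 10 kb, the shares of these patterns were 30.1%, 13.4%, 16.4% and 9.16%, in lists of different length.

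**Figure D2:**
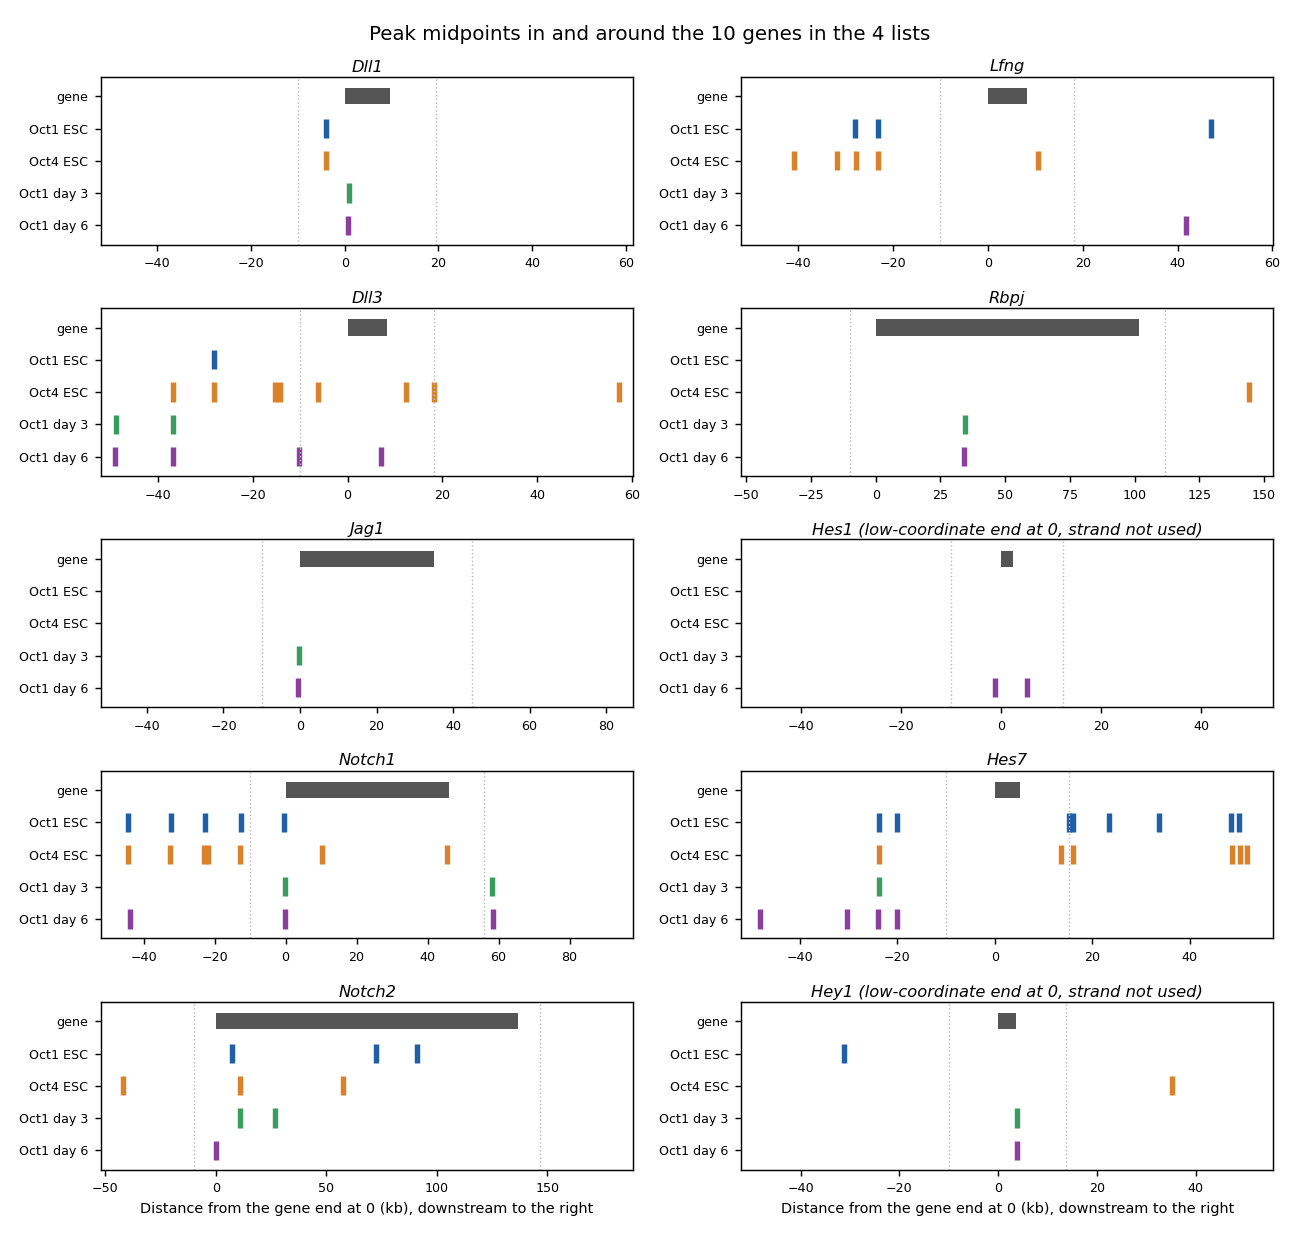
Midpoints of all peaks within 50 kb of the 10 genes, 1 panel per gene, with distance in kb from 1 end of the gene on the horizontal axis and 1 row per list (1 library each). The grey bar is the gene and dotted lines mark 10 kb from its ends, and for Hes1 and Hey1 the low-coordinate end is at 0. Day 3 and day 6 ticks coincide at Dll1, Jag1, Notch1, Rbpj and Hey1, and the ESC ticks of Dll1 lie upstream of the gene.

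Among the ligand genes, Dll1 had 1 peak in each list, but at 2 different sites. Dll1 (gene ID 13388, chr17:15367354-15376932) encodes the ligand that is required in presomitic mesoderm for Notch signalling between its cells. In ESCs, the Oct1 peak (chr17:15380521-15381130) had a score of 157, rank 5147 and percentile 70.8. The Oct4 peak of ESCs (chr17:15380431-15381550) overlapped it and had a score of 1072, rank 47 and percentile 99.8, the highest of any of the 33 peaks within 10 kb. This site lay between genes, 3589 bp (Oct1) and 3499 bp (Oct4) beyond the annotated 5′ end of Dll1, and neither later list had a peak there.

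The later Dll1 peaks lay inside the annotated gene, over the second of its 2 listed starts. The day 3 peak (chr17:15375751-15376390) had a score of 523, rank 648 and percentile 86.6, and the day 6 peak (chr17:15375631-15376860) a score of 762, rank 2514 and percentile 67.5. Both covered the whole of the window printed above. The octamer in it, at 15376035 to 15376042 and 219 bases before that start, lay 32 bp from the midpoint of the day 3 peak and 207 bp from that of the wider day 6 peak. Of the 10 promoter windows of the 8 genes, this was the 1 that held ATGCAAAT, which occurs in 1.74% of 32817 RefSeq windows of the same length. It occurred in 6.22% of the windows under an ESC Oct1 peak, 2.40% of those under an Oct4 peak, 3.59% of those under a day 3 peak and 1.44% of those under a day 6 peak. These shares describe letters in windows and identify no bound site.

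Jag1 (gene ID 16449, chr2:137081451-137116520), which encodes a ligand of another structural class than Dll1, had no peak within 50 kb in either ESC list. At day 3 a peak (chr2:137116501-137117070) with a score of 473, rank 750 and percentile 84.6 lay over its start. At day 6 an overlapping peak (chr2:137116611-137117660) with a score of 896, rank 1983 and percentile 74.4 began 91 bp upstream of the gene. No other peak was listed within 50 kb of Jag1, so every peak at this gene was at its promoter and in the differentiating cells.

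Dll3 (gene ID 13389, chr7:28293555-28301785) encodes a divergent ligand that acts inside the cell in presomitic mesoderm. Within 10 kb it had no Oct1 peak in ESCs or at day 3, 3 weak Oct4 peaks with percentiles of 22.2 to 25.9, and 2 Oct1 peaks at day 6. The day 6 peak in the gene body (chr7:28294391-28294910) had a score of 289, rank 5531 and percentile 28.6. The other (chr7:28311661-28312340, score 836, percentile 71.5) lay 9876 bp away with its midpoint 46 bp from an end of Timm50, a neighbouring gene for a mitochondrial import protein. The stronger peaks within 50 kb likewise lay at other genes. A peak of day 3 (score 402, percentile 79.4) and of day 6 (score 1731, percentile 94.2) had its midpoint 34 bp and 81 bp from an end of the ribosomal protein gene Rps16, more than 48 kb from Dll3.

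Of the receptor genes, Notch1 (gene ID 18128, chr2:26457902-26503822) had the 1 Oct1 site within 10 kb of these genes that was listed at all 3 times. It lay over the promoter window printed above, which held none of the motifs searched. In ESCs the peak (chr2:26503901-26504610) had a score of 195, rank 3838 and percentile 78.2. At day 3 the peak (chr2:26503651-26504460) had a score of 364, rank 1154 and percentile 76.2, and at day 6 (chr2:26503591-26504450) a score of 498, rank 3942 and percentile 49.1. No Oct4 peak overlapped them.

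Upstream of Notch1, between the gene and Egfl7, the ESC lists held a row of shared sites. The ESC Oct1 list had 4 peaks from 12419 bp to 43429 bp upstream, with percentiles of 27.3 to 75.5, and each overlapped an Oct4 peak, with percentiles of 42.0 to 77.7. The farthest of these sites also had a day 6 peak (score 90, percentile 5.91), and none had a day 3 peak. Inside Notch1 there were 2 weak Oct4 peaks (percentiles 7.15 and 21.8). Beyond its 3′ end, peaks of day 3 (score 301, percentile 69.0) and day 6 (score 1182, percentile 84.8) lay inside Sec16a, whose end was 718 bp and 778 bp from their midpoints.

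Notch2 (gene ID 18129, chr3:98013538-98150367) is the longest of the 10 genes (136830 bp). Apart from 1 site shared by the Oct4 and day 3 lists, its peaks lay at different sites from list to list. In ESCs, 3 Oct1 peaks lay in the gene body, the strongest at chr3:98085691-98086230 (score 424, rank 1098, percentile 93.7), 72422 bp downstream of the start. The other 2 had percentiles of 31.1 and 9.57, and none of the 3 overlapped a peak of another list. An Oct4 peak of ESCs (chr3:98024261-98024780, score 320, rank 1252, percentile 94.3) and the stronger day 3 Oct1 peak (chr3:98024181-98024840, score 337, rank 1285, percentile 73.4) shared a site about 11 kb downstream of the start, at 10982 bp and 10972 bp. A second Oct4 peak in the gene body had a percentile of 20.1, and a second day 3 peak one of 22.7. At day 6 neither site was listed, and the 1 peak (chr3:98013191-98013760, score 463, rank 4200, percentile 45.9) lay over the start, with its midpoint 63 bp upstream. Whether the sites inside the gene are exonic or intronic was not determined, because exon limits were not used here.

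Lfng (gene ID 16848, chr5:140607341-140615545) had the fewest peaks close by. Within 10 kb the lists held no Oct1 peak, and 1 Oct4 peak (chr5:140617611-140618180) with a score of 44, rank 22694 of 22817 and percentile 0.50, 2066 bp beyond the gene. Farther upstream, 2 sites were shared by both ESC lists, 22861 bp and 27571 bp away by their Oct1 peaks (percentiles 50.1 and 66.1). The 1 day 6 peak within 50 kb (score 1204, percentile 85.3) had its midpoint 14 bp from an end of Ttyh3, and no day 3 peak was listed.

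Rbpj (gene ID 19664, chr5:53555779-53657445) had the same pattern as Jag1 within 10 kb, with no peak in ESCs and overlapping peaks at day 3 and day 6. The day 3 peak (chr5:53590061-53590730) had a score of 200, rank 2376 and percentile 51.0, and the day 6 peak (chr5:53589031-53590890) a score of 520, rank 3797 and percentile 51.0. With 1860 bp the latter was the widest of the 33 peaks within 10 kb. Both covered the 2 listed starts, which lie inside the annotated gene, and the ATGCNAAT match printed above, a pattern found in 3.15% of all windows. The match lay 244 bp and 191 bp from the 2 midpoints.

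Of the repressor genes, Hes1 (gene ID 15205, chr16:30065357-30067796) had day 6 peaks alone within 50 kb. One (chr16:30063801-30064450, score 301, rank 5432, percentile 29.9) lay 907 bp below the low-coordinate end of the gene and the other (chr16:30070171-30070840, score 331, rank 5206, percentile 32.9) 2375 bp above its high-coordinate end. Both ranked in the weaker part of the day 6 list, and neither overlapped the gene.

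Hey1 (gene ID 15213, chr3:8663359-8667038) had no ESC peak within 10 kb and overlapping later peaks at its high-coordinate end. The day 3 peak (chr3:8666891-8667610) had a score of 184, rank 2538 and percentile 47.8, and the day 6 peak (chr3:8666821-8667610) a score of 762, rank 2514 and percentile 67.5. The same peaks lay on the neighbouring gene LOC115489673, so these 2 genes cannot be told apart by them. The ESC peaks within 50 kb, 1 of Oct1 (percentile 75.5) and 1 of Oct4 (percentile 82.4), lay 30869 bp and 31303 bp away on opposite sides.

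Hes7 (gene ID 84653, chr11:69118906-69124054) had the most peaks within 50 kb, 19 over the 4 lists, and none over its own body or promoter window. Within 10 kb there were 1 ESC Oct1 peak (chr11:69133831-69134370, score 177, rank 4471, percentile 74.7) and 1 Oct4 peak (chr11:69132251-69132870, score 136, rank 11992, percentile 46.1). Both lay inside the neighbouring gene Aloxe3 and did not overlap. Just beyond the 10 kb window, also inside Aloxe3, an ESC Oct1 peak 10637 bp from Hes7 overlapped an Oct4 peak 10657 bp from it. The strongest site of the neighbourhood was the 1 site of the 56 within 50 kb of these genes that had a peak in all 4 lists. This site lay at an end of Per1, a gene of the circadian clock, 23256 bp from Hes7 by its ESC Oct1 peak. The share of sites with peaks in all 4 lists was not counted over all genes.

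At Per1, the ESC Oct1 peak (chr11:69094611-69095650) had a score of 2528, rank 124 and percentile 99.3, and the Oct4 peak a score of 399, rank 616 and percentile 97.3. The day 3 peak had a score of 1058, rank 213 and percentile 95.6, and the day 6 peak a score of 2342, rank 193 and percentile 97.5. The midpoints lay 13 bp to 78 bp from the end of Per1. A second strong ESC Oct1 peak (score 1413, rank 233, percentile 98.7) lay 28327 bp from Hes7 on the other side, nearest to Aloxe3, and overlapped no peak of the other lists. Counting peaks within 50 kb for Hes7 therefore counts sites whose nearest gene is another one.

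**Figure D3:**
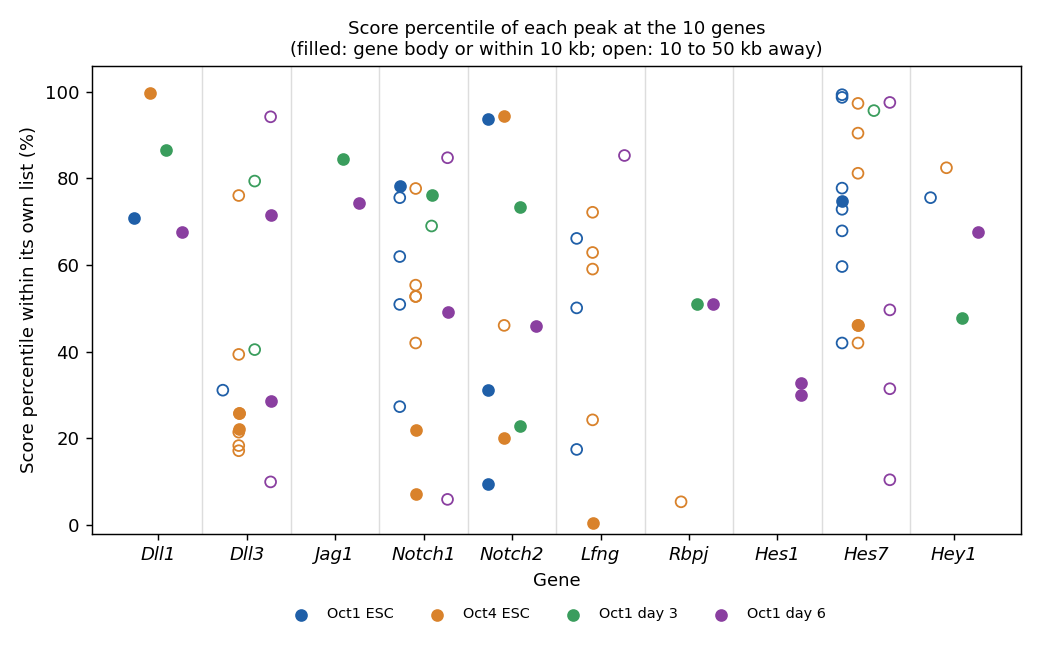
Score percentile within its own list (vertical axis, in percent) of every peak at the 10 genes (horizontal axis), with filled points for peaks of the near window (10 kb) and open points for peaks 10 to 50 kb away. Each point is 1 peak of 1 library, and colours give the list. The highest filled point is the Oct4 peak of Dll1 at 99.8, and the highest open points belong to Hes7, whose strongest neighbours lie at Per1.

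The promoters of Hes7 and Lfng, at which no list had a peak, were the 2 of the 10 windows that held GTGGGAA, a core sequence bound by Rbpj, on either strand. That sequence occurs in 6.39% of all windows, in 7.69% of those under an ESC Oct1 peak and 7.94% under an Oct4 peak, and in 5.24% (day 3) and 5.06% (day 6) of those under later Oct1 peaks. Among the named pathway genes, Spen held it under its day 3 and day 6 peaks, and Psen2 and Hes5 held it where no list had a peak. The stretches are printed to set them beside the octamer of Dll1, with capitals marking the match.
Lfng, chr5:140607222-140607248, plus strand: cgtatcccacGTGGGAAggagagatct
Hes7, chr11:69120263-69120289, plus strand: ctcccctcacTTCCCACatttggggct
The match lies 109 bases before the start in Lfng and 180 bases before it in Hes7, where it reads on the opposite strand. The fourth sequence searched, ATGCATAT, the core of the MORE element to which POU factors bind as dimers, was found in none of the 10 windows and in 0.77% of all windows.

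Each peak was also placed among all peaks of its own list, which cannot show whether binding changed between lists. The ESC Oct1 peaks within 10 kb had a median percentile of 72.8 (range 9.57 to 93.7, 6 peaks) and the Oct4 peaks one of 24.1 (0.50 to 99.8, 10 peaks). The day 3 peaks had a median of 73.4 (22.7 to 86.6, 7 peaks) and the day 6 peaks one of 50.1 (28.6 to 74.4, 10 peaks). By construction the median of a whole list is 50, and 8 of the 10 Oct4 peaks lay below it, all but the peak at Dll1 and the stronger of 2 at Notch2. For all 7 day 3 peaks the gene end nearest to the midpoint was that of the gene itself, as for 9 of the 10 day 6 peaks, 5 of the 6 ESC Oct1 peaks and 6 of the 10 Oct4 peaks. Over all pairs of a protein-coding gene and a peak within 10 kb the shares were 64.1% (day 3), 62% (day 6), 75.6% (ESC Oct1) and 74.6% (Oct4).

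A list of 83 other genes of the pathway and the clock gave the setting. Within 10 kb, 39 of them had an Oct1 peak (47.0%) and 43 an Oct4 peak (51.8%) in ESCs, and later Oct1 peaks were listed for 28 (33.7%, day 3) and 53 (63.9%, day 6). Each share was above that of all protein-coding genes given earlier, and gene length was not matched. Of the 64 with a promoter window, an ESC peak lay over it in 4 for Oct1 and 4 for Oct4 (6.25% each). Later Oct1 peaks did so in 10 (15.6%, day 3) and 29 (45.3%, day 6). The shares of all genes were 5.81% and 4.18% in ESCs, 14.1% at day 3 and 31% at day 6, so those of ESC Oct1 and day 3 were near them. No list had a peak within 10 kb of 15 of the 83 genes, where 36.5% of all genes had none.

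The counts by role that follow stand against shares of all genes within 10 kb of 35.2% (ESC Oct1), 40.2% (Oct4), 24.6% (day 3) and 41.5% (day 6), and with 2 to 25 genes a role several are near them. All 7 genes of the proteases that cleave Notch receptors had a day 6 peak, while Oct1 peaks of ESCs were at 5 of them, Oct4 peaks at 6 and day 3 peaks at 2. At day 6, Adam10, whose product makes the first of these cuts, had a peak over its promoter (score 1812, rank 389, percentile 95.0). The 4 glycosylation genes all had a day 6 and an Oct4 peak, 3 had an ESC Oct1 peak and none a day 3 peak. Among them, Rfng, a paralogue of Lfng, had an Oct4 peak with a score of 746 (rank 100, percentile 99.6) and an ESC Oct1 peak with a score of 728 (rank 520, percentile 97.1). Of the 15 nuclear cofactor genes, 5 had an Oct1 peak and 11 an Oct4 peak in ESCs, and Oct1 peaks were listed for 6 at day 3 and 10 at day 6. Spen, a corepressor that binds Rbpj, had promoter peaks at day 3 (percentile 88.4) and day 6 (percentile 95.0). Kat2a, a histone acetyltransferase gene, had an Oct4 peak with percentile 98.5, nearest to Dhx58.

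Of the 11 genes for inhibitors and turnover, 6 had an Oct1 peak and 3 an Oct4 peak in ESCs, and Oct1 peaks were listed for 6 at day 3 and 9 at day 6. Nrarp had promoter peaks at day 3 (score 371, rank 1121, percentile 76.9) and day 6 (score 437, rank 4386, percentile 43.4). Its octamer lay 49 bases before the start, 57 bp and 68 bp from their midpoints. In ESCs the 1 Oct1 peak within 10 kb of Nrarp was 9962 bp away, nearest to Tor4a. Like the later Dll1 site, the Nrarp promoter thus had an octamer under Oct1 peaks of day 3 and day 6 and no ESC peak, but this was noticed after the motif search.

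Of the 10 other Hes, Hey and related target genes, 5 had an Oct1 peak and 4 an Oct4 peak in ESCs, and later Oct1 peaks were listed for 4 (day 3) and 8 (day 6). Hes5, another Notch target, had Oct1 peaks of rank 41 in ESCs, 37 at day 3 and 25 at day 6 and no Oct4 peak. Their midpoints lay 27 bp to 262 bp from an end of Pank4, and more than 1 kb from Hes5. Id3, an inhibitor of basic helix-loop-helix factors, had promoter peaks at day 3 (percentile 88.6) and day 6 (percentile 70.7). Id2, of the same family, ranked high in ESCs (Oct1 percentile 90.2) and low at day 3 (9.53) and day 6 (19.4), at different sites.

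Of the 25 other clock and boundary genes, 9 had an Oct1 peak and 10 an Oct4 peak in ESCs, and later Oct1 peaks were listed for 7 (day 3) and 10 (day 6), shares of 36%, 40%, 28% and 40% that were near those of all genes. Nkd1, an inhibitor of Wnt signalling, had day 3 and day 6 peaks at an end of the gene (percentiles 83.3 and 87.8). Wnt3a, a ligand gene of the tail bud, had overlapping ESC peaks of Oct1 (score 344, percentile 91.2) and Oct4 (score 510, percentile 98.8) 3716 bp and 3656 bp from the gene, a day 3 peak with percentile 6.57 and none at day 6. Spry4, a feedback inhibitor of FGF signalling, had peaks in all 4 lists with percentiles from 51.1 to 79.7, but not at 1 site. Its ESC Oct1 peak lay inside the neighbouring gene Arhgap26, 8354 bp away, and its Oct4 peak was elsewhere. The overlapping day 3 and day 6 peaks lay on both genes.

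The highest-ranked Oct1 site within 10 kb of any of the 93 genes lay at the promoter of the ligand gene Jag2, in each of the 3 Oct1 lists. Of the 5 ligand genes in the list, Jag2 among them, 3 had an Oct1 peak and 1 (Jag2) an Oct4 peak in ESCs, and 2 had an Oct1 peak at each later time. At Jag2 the ESC Oct1 peak had a score of 26148 and rank 16, the day 3 peak a score of 31637 and rank 7, the day 6 peak a score of 11075 and rank 10, and the Oct4 peak a score of 353 and rank 921. All 4 lay over its promoter window, which held none of the 4 motifs. Jag1, the ligand gene of the same class, ranked 750 at day 3 and 1983 at day 6 and had no ESC peak. Numbl, a homologue of the Notch inhibitor Numb, likewise had promoter peaks of Oct1 at all 3 times, with ranks 187, 94 and 183, and no Oct4 peak. Its day 3 and day 6 peaks also lay on the neighbouring gene Coq8b. Of the remaining lists, 2 of 4 genes for ligand endocytosis had an Oct1 peak and 2 an Oct4 peak in ESCs, with Oct1 peaks at 1 on day 3 and 2 on day 6. Of the 2 other receptor genes, 1 had an Oct1 peak and 2 an Oct4 peak in ESCs, with later Oct1 peaks at 0 on day 3 and 1 on day 6.

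**Figure D4:**
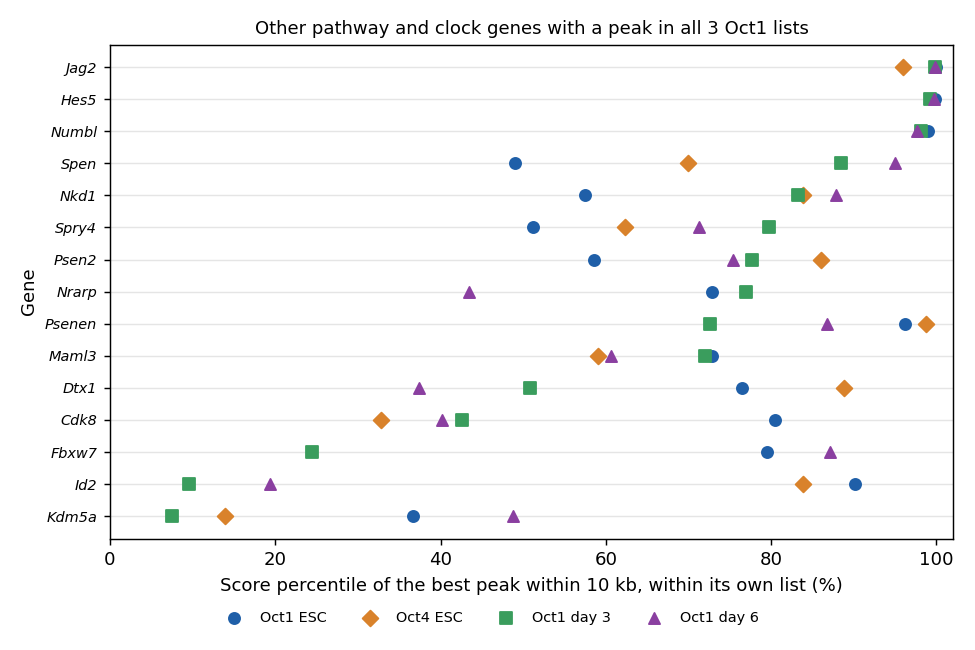
Score percentile within its own list (horizontal axis, in percent) of the best peak within 10 kb for the 15 of 83 other pathway and clock genes (vertical axis) that had a peak in all 3 Oct1 lists, with 1 library per list. Symbols give the list, and a missing diamond means that no Oct4 peak was listed. The best peaks of a gene can lie at different sites. Jag2, Hes5 and Numbl lie above 97 at all 3 times, while Id2 and Kdm5a lie below 10 at day 3.

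These 15 genes included Psen2 and Psenen of the receptor protease, the cofactor genes Maml3, Spen and Kdm5a, and the inhibitor or turnover genes Numbl, Dtx1, Fbxw7, Nrarp and Cdk8. The share of all genes with a peak in all 3 Oct1 lists was not counted, so the 15 are a description. A peak in each list need not be the same site. At Spen, Maml3 and Nkd1, for example, the best Oct1 peaks of ESCs and of later times lay apart. Of the 83 genes, 11 had a peak in all 4 lists, as 9.18% of all genes did. At Cdk8 the later peaks lay nearest to Rnf6, and at Dtx1 the best peaks of ESCs lay inside the gene and those of day 3 and day 6 at an end of it, 47 bp and 23 bp away. Psenen had overlapping peaks of rank 670 (ESC Oct1), 286 (Oct4) and 1023 (day 6) over its promoter window, which also lay on the neighbouring gene U2af1l4 and were nearest to an end of it. Its day 3 peak was another site, nearest to Lin37.

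Genes of like pattern were sought for the 8 genes with a peak within 10 kb in 2 or more lists. Likeness was the Euclidean distance between the 4 best percentiles (0 without a peak), over 4 libraries and all protein-coding genes, and the 3 nearest genes are named, as a description. For Rbpj these were Dedd (0.40 percentile points), Gm40453 and Pik3c2a (1.11 each), and for Jag1 they were Glt28d2 (1.19), Bora and Mzt1 (1.28 each). For Hey1 they were LOC115489673, which shares its peaks (0), Myl12a and Myom1 (0.40 each). For Hes7, Ccdc169, Cnbd2 and Dnah14 were equally near (0.80), and for Dll3, Gtf2h3 (1.34), Mdm1 (2.26) and Otub1 (2.34). Named genes at equal distance from a gene had the same 4 percentiles, and whether they share peaks with each other was not determined. Genes with peaks in all 4 lists had less close neighbours. For Notch2 they were Slc25a41 (3.43), Kazn (5.75) and Ryr1 (5.80), for Dll1 Col23a1 (11.3), Pmm1 (14.3) and Cpm (15.1), and for Notch1 Prmt1 (13.9), Samd4b (16.0) and Thrap3 (16.2).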

How the data were processed

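Per the labels, chromatin was crosslinked with 1% formaldehyde and read as 50 bp pairs, with 100 M pairs stated. Per the submitters' processing notes, Novoalign 3.8.2 and genome mm10 were used; the peak caller, threshold and control are not given in the sources used here. The authors deposited 1 headerless list per library with 5 columns, the last a whole-number score. The 7 samples include 3 inputs, not analysed here.

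Coordinates are those of the lists, made 1-based, and mm10 is the same assembly as GRCm38. Overlap meant at least 1 bp and was computed with pandas 2.3.3 and numpy 2.4.6 under Python 3.11.15, and bedtools 2.31.1 gave the same counts for every pair of lists. Functions were tested on simulated data. Figures used matplotlib 3.10.9. Ranks count peaks with higher scores, and percentiles share ties. The depth reached is unknown, so no interval is given. Motifs were searched on both strands of promoter windows.

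Members and lists were chosen with earlier results of these data known, and 1 gene of the pathway list is not reported here. The promoter counts, the shares of merged sites, the split by gene length and the motif search in windows of other genes were chosen after the data were seen. Named were all 10 genes, list genes in all 3 Oct1 lists, and the 5 list genes with the highest percentile in each list; other genes were named after their values were seen.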

Additional observations from a re-analysis of the deposited data

How the results depend on the processing

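In all, 96 counts were recomputed under other settings, giving 456 values, of which 357 were within 1.5 times the reported count and the other 99 were lower. Part of the 357 was fixed in advance, because a gene with no peak in the reported count can gain none under any of these settings. The day 3 list is the shortest, so shortening left it unchanged. The tally is therefore no measure of stability. Apart from that list, each alternative below keeps fewer peaks, a smaller window or a stricter overlap by its construction. When each list was limited to the upper 50% of its scores, the 10 genes with a peak within 10 kb numbered 2 for Oct4 and 5 for day 6, and the 83 other genes 18 at day 3 and 28 at day 6 (15% and 25% of all genes). Day 6 peaks then overlapped 0 of the 4 ESC Oct1 peaks left (4.47% of all such peaks) and 3 of the 5 left at day 3 (67.8%). With all lists shortened to 4867 peaks, 2 genes had an Oct4 peak within 10 kb, 4 an ESC Oct1 peak and 4 an Oct4 peak within 50 kb (33.6% and 31.4% of all genes), and of the 83 genes 19 had an ESC Oct1 and 20 an Oct4 peak within 10 kb (16.3% and 14.7%). Within the gene body, 1 gene had an ESC Oct1 and 2 an Oct4 peak, and of the 83 genes 22 had an ESC Oct1 and 18 a day 3 peak (23.9% and 17.7% of all genes). Within 10 kb of the start, 3 of 8 genes had an Oct4 peak, and of 64 other genes 15 had an ESC Oct1 and 16 an Oct4 peak (20.1% and 23.2% of all genes with a window). When each peak had to cover 50% of the other, 3 of the 7 day 3 peaks were shared with day 6. No paired analysis was possible because each group had 1 library. Unknown depth and thresholds limit every absence of a peak to the lists as deposited.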
